A study of Mus musculus with 2 samples.

Results

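The genes described here encode the pore-forming subunits of the AMPA and kainate receptors of the mouse: Gria1, Gria2, Gria3 and Gria4 for AMPA receptors, and Grik1, Grik2, Grik3, Grik4 and Grik5 for kainate receptors. They were taken by gene symbol, and all 9 were found among the 32285 genes of the deposited count tables. Their UMI counts (unique molecular identifiers, each standing for 1 captured RNA molecule) were read in single nuclei of the ventral tegmental area (VTA), a midbrain region that holds dopaminergic, GABAergic and glutamatergic neurons. The study set adult mice with chronic neuropathic pain, here called CCI, against wild-type mice, here called WT. CCI stands for chronic constriction injury, made on the left sciatic nerve, while the right sciatic nerve was laid bare without a ligature. WT mice carried no injury in the labels, which do not say whether they had sham surgery. No allele or drug was named for either group, both groups were dissociated with the same enzymatic kit and machine, and both were prepared with 10x Genomics single-cell 3′ v2 chemistry. The labels used here give neither the strain, sex and exact age nor the time after injury, the side of the brain taken or the number of animals pooled.

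Each group was 1 library, so the injury and the library cannot be told apart, no test between groups was possible, and every difference below describes these libraries. Intervals are exact 95% intervals that cover counting error only.

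AMPA and kainate receptors are glutamate-gated ion channels built from 4 subunits each. AMPA receptors carry most of the fast excitatory current at synapses, and their subunit make-up sets their speed and their permeability to calcium. Kainate receptors act on both sides of the synapse, where they modulate transmitter release and slow excitation. In the VTA, glutamate inputs drive the firing of dopaminergic neurons, and AMPA receptor make-up at these inputs is known to change with experience. Astrocytes and oligodendrocyte precursors also carry AMPA receptors.

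A single glutamine codon in the pore loop is a key site of these channels. In Gria2, Grik1 and Grik2 transcripts it can be recoded to arginine by the RNA editing enzyme ADAR2, encoded by Adarb1, and AMPA receptors with the edited GluA2 subunit pass little calcium. Counts of 3′ tags per gene do not read this editing. The stretch of 51 bases around the codon is shown for the 6 subunits on which the make-up below turns, from GENCODE vM21 transcripts, with the codon in capitals.
Gria1: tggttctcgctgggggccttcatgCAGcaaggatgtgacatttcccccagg
Gria2: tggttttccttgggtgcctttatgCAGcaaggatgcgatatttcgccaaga
Gria4: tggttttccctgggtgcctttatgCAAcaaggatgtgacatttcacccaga
Grik1: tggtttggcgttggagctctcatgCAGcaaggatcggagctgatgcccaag
Grik2: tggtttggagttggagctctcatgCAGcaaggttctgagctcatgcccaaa
Grik3: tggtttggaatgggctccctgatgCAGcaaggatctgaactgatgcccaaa

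In build GRCm38 (mm10) the codon lies at chr11:57243094-57243096 in Gria1 (plus strand, exon 11), at chr3:80706911-80706913 in Gria2 (minus strand, exon 11) and at chr9:4464137-4464139 in Gria4 (minus strand, exon 12). It lies at chr16:87940542-87940544 in Grik1 (minus strand, exon 13), at chr10:49244329-49244331 in Grik2 (minus strand, exon 12) and at chr4:125691207-125691209 in Grik3 (plus strand, exon 12). Against Gria2 the codon of Gria4 carried the substitution G27A, counted from 1 at the 5′ end of the printed stretch, and both forms encode glutamine. Over the 51 bases Gria2 shared 88.2% with Gria4 and 80.4% with Gria1. Grik1 and Grik2 shared 90.2%, and Gria2 and Grik2 62.7%.

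The libraries differed in depth. The CCI library held 68376220 UMIs in 13736 barcodes with a median of 3652 UMIs, and the WT library 18581333 UMIs in 14114 barcodes with a median of 975. The libraries shared 54 barcodes, of which 37 were among the nuclei kept, 12802 in CCI and 12128 in WT. Nuclei were clustered without the ionotropic glutamate receptor genes, and clusters were named from marker genes, so a name means that a cluster was like that type by its markers. Dopaminergic neurons were 389 nuclei in CCI and 828 in WT, GABAergic neurons 1219 in CCI and 759 in WT, astrocytes 1485 in CCI and 1267 in WT, and oligodendrocyte precursors 387 in CCI and 549 in WT. A further 1913 nuclei in CCI and 943 in WT formed a VGLUT-rich group, in which vesicular glutamate transporter UMIs (Slc17a6, Slc17a7 and Slc17a8) were at least 3 times those of GABAergic markers. Neurons of mixed transmitter markers, 3109 in CCI and 3401 in WT, were kept apart as other neurons. The libraries filled the neuron clusters unequally: the largest neuron cluster held 184 nuclei in CCI and 4727 in WT, and the next held 4664 in CCI and 72 in WT. Neurons with Pmch and Hcrt among their leading genes, which mark the lateral hypothalamus, numbered 361 in CCI and 17 in WT.

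Over all nuclei kept, Grik2 was the member with the most UMIs, 101727 in CCI and 25845 in WT, and Grik5 the one with the fewest, 4697 in CCI and 891 in WT. A gene's UMIs depend on its length where unspliced RNA is captured, and these genes span from 62.5 kb (Grik5) to 694 kb (Grik2) of genome. Levels are therefore compared within a gene as CPM (a gene's UMIs scaled to a common total in each group), and between genes as CPM per kb of gene span. Make-up is given as each subunit's percentage of the AMPA or kainate UMIs of a group.

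**Figure D1:**
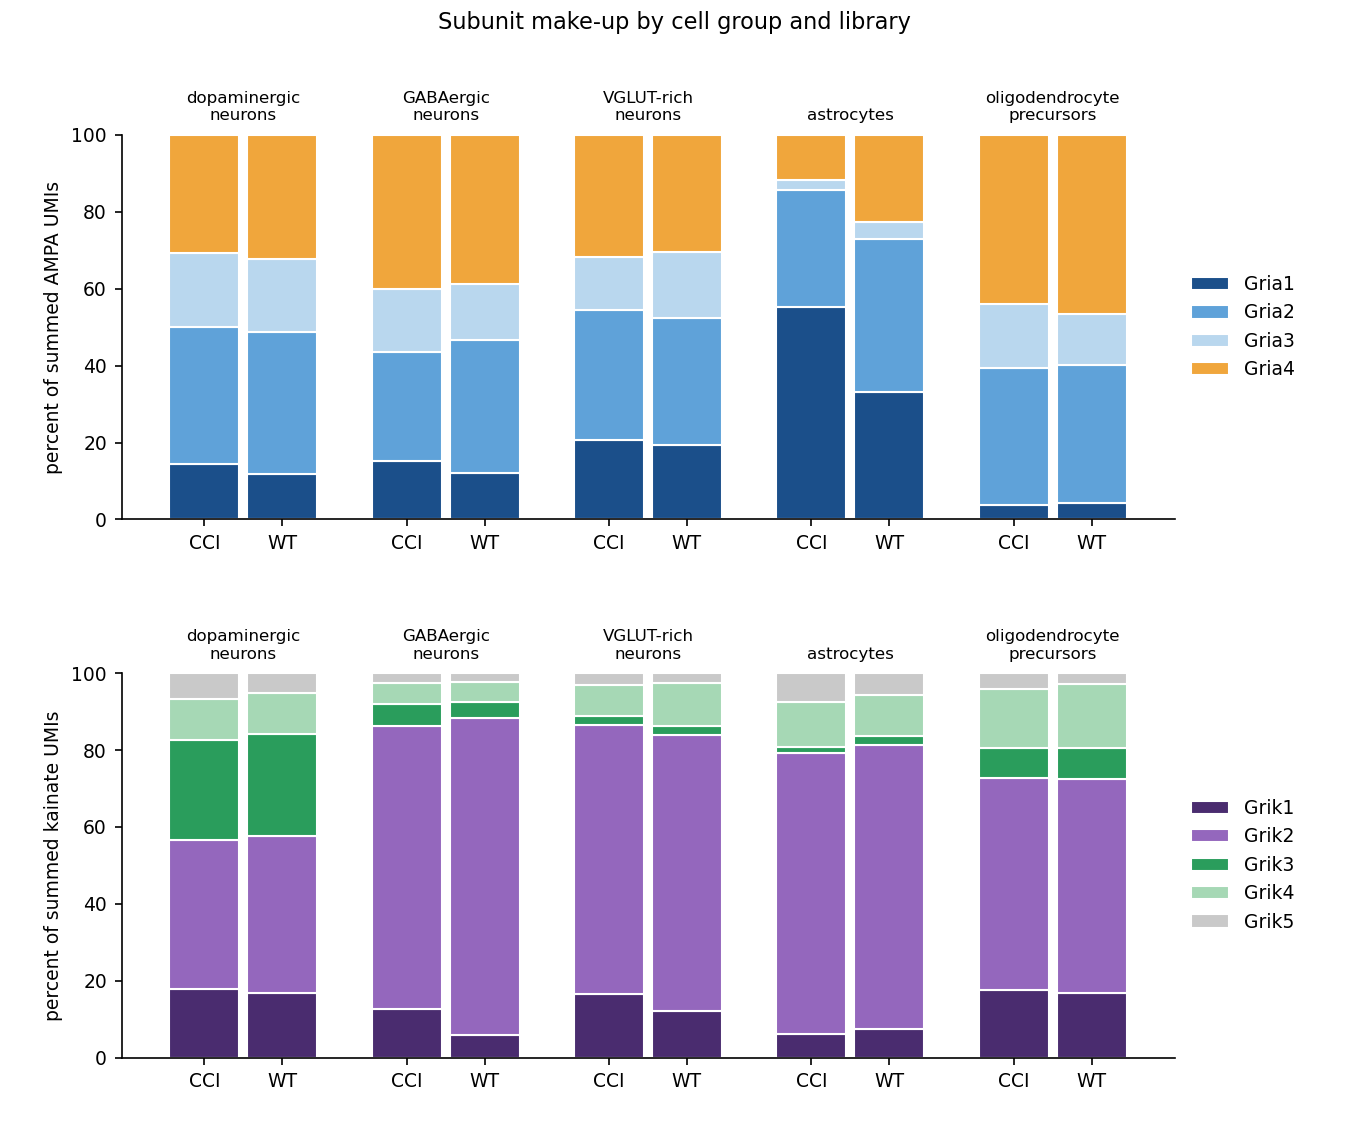
Percentage of summed AMPA UMIs (top) and summed kainate UMIs (bottom) taken by each subunit gene in 5 cell groups, CCI left of WT in each pair. Gria1 takes 55.2% of the AMPA bar of CCI astrocytes and 33.1% of that of WT astrocytes, and Grik3 is widest in dopaminergic neurons.

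In dopaminergic neurons Gria2 took the largest share of AMPA UMIs and Gria4 the next, and the make-up was close between the libraries. Gria2, whose edited subunit limits calcium entry, made up 35.7% (34.8 to 36.6) in CCI and 36.9% (35.7 to 38.2) in WT. Gria4, a subunit of fast-gating receptors, made up 30.8% in CCI and 32.4% in WT. Gria3, which commonly pairs with GluA2, made up 19.2% in CCI and 18.9% in WT. Gria1, whose subunit is inserted at synapses during plasticity, was the smallest share, with 14.3% (13.7 to 15.0) in CCI and 11.8% (11.0 to 12.6) in WT. Per kb, Gria2 stood further ahead: 8.87 CPM per kb in CCI and 9.11 in WT, against at most 2.56 for any other AMPA gene in these neurons. On that scale it held 60.1% of the AMPA signal in CCI and 61.5% in WT.

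Dopaminergic neurons stood apart from the other 4 groups in their kainate make-up. Grik3, a low-affinity subunit, gave 25.9% (24.7 to 27.1) of their kainate UMIs in CCI and 26.6% (25.0 to 28.3) in WT. In the other 4 groups it gave between 1.61% and 7.72% in CCI and between 2.32% and 7.95% in WT, so the ranges of both libraries lay below every dopaminergic value. The Grik3 level showed the same order: 389 CPM in CCI and 381 CPM in WT in dopaminergic neurons, against no more than 197 CPM in CCI and 216 CPM in WT in any of the others. Grik2, the most widely used low-affinity subunit, gave 38.7% in CCI and 40.8% in WT in dopaminergic neurons, its smallest share among the 5 groups in both libraries. The high-affinity subunits, which need Grik1 to Grik3 partners to form channels, were minor: Grik4 gave 10.8% in each library, and Grik5 gave 6.70% in CCI and 5.10% in WT. Per kb, Grik3 led the kainate genes of dopaminergic neurons, with 1.74 CPM per kb in CCI and 1.70 in WT, and Grik5 followed with 1.61 in CCI and 1.17 in WT.

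GABAergic neurons were led by Gria4 and Grik2. Gria4 made up 40.1% (39.6 to 40.6) of AMPA UMIs in CCI and 38.9% (37.6 to 40.1) in WT. Gria2 made up 28.4% (27.9 to 28.8) in CCI and 34.5% (33.3 to 35.8) in WT. Within the 3 GABAergic subclusters that both libraries filled, the Gria2 shares were closer: 24.6% in CCI and 28.1% in WT, 40.1% in CCI and 40.6% in WT, and 27.1% in CCI and 27.4% in WT. Those subclusters held 558 CCI and 127 WT, 148 CCI and 371 WT, and 164 CCI and 256 WT nuclei. Grik2 gave 73.5% of kainate UMIs in CCI and 82.5% in WT, and its level of 2382 CPM in CCI and 2441 CPM in WT was the highest of the 5 groups in both libraries. Grik1, a subunit known from interneurons and sensory neurons, gave 12.7% (12.3 to 13.0) in CCI and 5.81% (5.14 to 6.53) in WT. Per kb, Gria2 remained the first AMPA gene, with 9.54 CPM per kb in CCI and 11.1 in WT, ahead of Gria4 with 4.33 in CCI and 4.005 in WT.

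VGLUT-rich neurons had the largest Gria1 share among the 3 neuron groups, 20.7% (20.4 to 21.1) in CCI and 19.5% (18.6 to 20.4) in WT. Gria2 and Gria4 shared most of the rest, with Gria2 at 33.8% in CCI and 32.8% in WT and Gria4 at 31.8% in CCI and 30.3% in WT. Per kb, Gria2 held 58.4% in CCI and 57.0% in WT and Gria4 17.6% in CCI and 16.9% in WT. Gria3 gave 13.7% in CCI and 17.4% in WT. Their kainate UMIs were mostly Grik2, 69.8% in CCI and 72.0% in WT. Grik3 was at its lowest among the neuron groups here, with 2.57% in CCI and 2.32% in WT. Grik4 gave 7.84% (7.56 to 8.12) in CCI and 11.3% (10.4 to 12.1) in WT.

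Among the 5 groups, astrocytes were the one in which Gria1 was highest and Gria3 lowest, in both libraries. Gria1 reached 1673 CPM in CCI and 869 CPM in WT, and made up 55.2% (54.3 to 56.1) of AMPA UMIs in CCI and 33.1% (31.3 to 34.9) in WT. Single neuron subclusters could stand higher: the VGLUT-rich one led by Glis3 and Slit3 held 1886 CPM of Gria1 in CCI and 2074 CPM in WT. Gria3 was at 76.3 CPM in CCI and 119.6 CPM in WT, while the other 4 groups held at least 439 CPM in CCI and 522 CPM in WT. Gria2 gave 30.5% in CCI and 39.7% in WT, and Gria4 gave 11.8% in CCI and 22.6% in WT. The first gene in astrocytes thus depended on the scale and the library: by UMIs it was Gria1 in CCI and Gria2 in WT, and per kb it was Gria2 in both, with 7.62 CPM per kb in CCI and 8.59 in WT. Kainate subunits were low, with summed levels of 1021 CPM in CCI and 1205 CPM in WT, of which Grik2 gave 73.2% in CCI and 74.0% in WT. Per kb, Grik5 gave 43.5% of the kainate signal in CCI and 35.8% in WT, and Grik2 38.3% in CCI and 42.5% in WT.

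Oligodendrocyte precursors were nearly the reverse of astrocytes for Gria1. It made up 3.85% (3.31 to 4.44) of their AMPA UMIs in CCI and 4.39% (3.50 to 5.41) in WT, the smallest share of any of the 5 groups. Gria4 led with 43.9% in CCI and 46.5% in WT, and Gria2 followed with 35.6% in CCI and 35.8% in WT. Per kb the order was reversed, with Gria2 at 61.0% of the AMPA signal in CCI and 61.5% in WT and Gria4 at 24.1% in CCI and 25.7% in WT. Grik4 was at its highest here, with 394 CPM in CCI and 457 CPM in WT, against no more than 189 CPM in CCI and 292 CPM in WT elsewhere among the 5 groups. Grik1 at 445 CPM in CCI and 455 CPM in WT was also at its highest among the 5 groups. In CCI, however, the GABAergic level of 410 CPM had an interval (397 to 424) that overlapped that of the precursors (409.8 to 483). The interval of the VGLUT-rich level of 400 CPM (390 to 410.4) overlapped it as well. Single VGLUT-rich subclusters stood higher. Grik4 was at 511 CPM in CCI and 526 CPM in WT in the one led by Glis3 and Slit3. Grik1 was at 929 CPM in CCI and 1026 CPM in WT in the one led by Gulp1 and C1ql1.

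**Figure D2:**
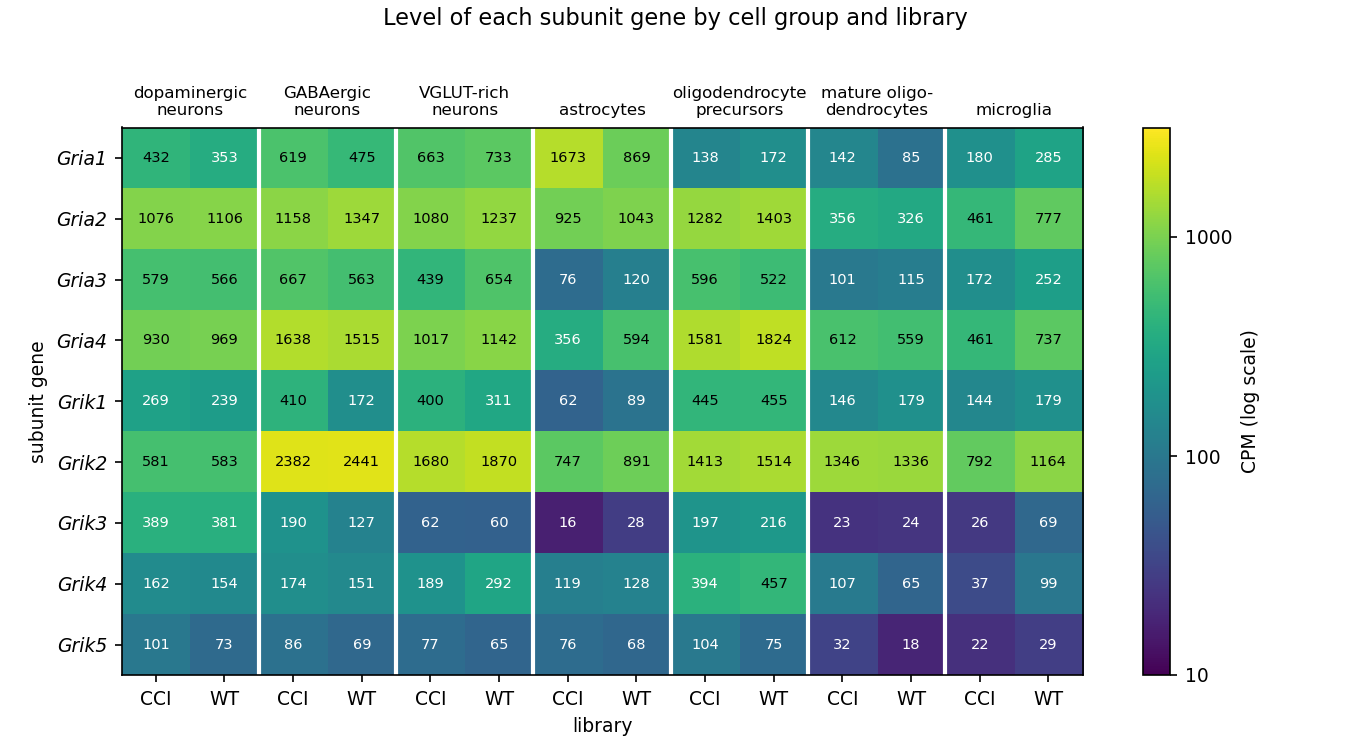
Level of each subunit gene in CPM (colour, log scale, with the value printed) in 7 cell groups, CCI left of WT in each pair. Among the groups shown, Gria1 is highest in astrocytes, Grik3 in dopaminergic neurons and Grik4 in oligodendrocyte precursors, in both libraries.

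Free RNA from broken cells gives some UMIs of neuronal genes to every barcode. Microglia, which are not known for these receptors, held summed AMPA levels of 1274 CPM in CCI and 2051 CPM in WT, and the 7 neuron markers summed to 7237 CPM there in CCI and 9917 CPM in WT. In neurons the same markers summed to between 22653 and 32946 CPM in CCI and between 18483 and 29274 CPM in WT over the 3 groups. Astrocytes had neuron marker sums of 2905 CPM in CCI and 3312 CPM in WT, and the precursors 4034 CPM in CCI and 4183 CPM in WT, all below the microglial sums. The Gria1 level of astrocytes stood above that of microglia (180 CPM in CCI and 285 CPM in WT), and the Gria1 level of the precursors (138 CPM in CCI and 172 CPM in WT) stood below it. In astrocytes 5 of the 9 members were below their microglial levels in both libraries: Gria3, Gria4, Grik1, Grik2 and Grik3. Astrocytic Gria4, for one, had 356 CPM in CCI and 594 CPM in WT, beside microglial levels of 461 CPM in CCI and 737 CPM in WT. No expression in astrocytes is read from these 5, and the part of free RNA in them was not tested.

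Once every nucleus was thinned to 1000 UMIs, the share with a Gria1 UMI was larger in astrocytes than in microglia and oligodendrocyte precursors. In astrocytes 71.7% of 1472 CCI nuclei and 46.5% (39.5 to 53.7) of 202 WT nuclei held a Gria1 UMI, with 13 CCI and 1065 WT nuclei left out as too shallow. Unthinned, the shares were 87.3% in CCI and 41.4% in WT, at median depths of 2324 UMIs in CCI and 756 UMIs in WT. In microglia the thinned shares were 14.2% (10.7 to 18.3) of 346 nuclei in CCI and 31.3% (20.6 to 43.8) of 67 nuclei in WT. This left out 61 CCI and 226 WT microglia. Their unthinned median depths were 1460 UMIs in CCI and 626 UMIs in WT. In WT the microglial interval overlapped the astrocytic one. In oligodendrocyte precursors the thinned shares were 14.0% (10.7 to 17.8) in CCI and 17.7% (11.6 to 25.4) of 130 nuclei in WT, with 419 WT precursors left out. These intervals overlapped the microglial ones in both libraries. A Gria1 UMI was held by 42.1% of VGLUT-rich nuclei in CCI and 43.6% (40.2 to 47.0) in WT. In WT that interval overlapped the astrocytic one. Grik3 was held by 29.3% of dopaminergic nuclei in CCI and 28.1% (24.9 to 31.5) in WT after thinning, against 2.89% of microglia in CCI and 8.96% in WT. Other groups lay nearer: 17.2% of GABAergic nuclei in CCI and 9.91% in WT held it. In the precursors the shares were 15.5% in CCI and 21.5% (14.8 to 29.6) in WT, where the interval overlapped the dopaminergic one.

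**Figure D3:**
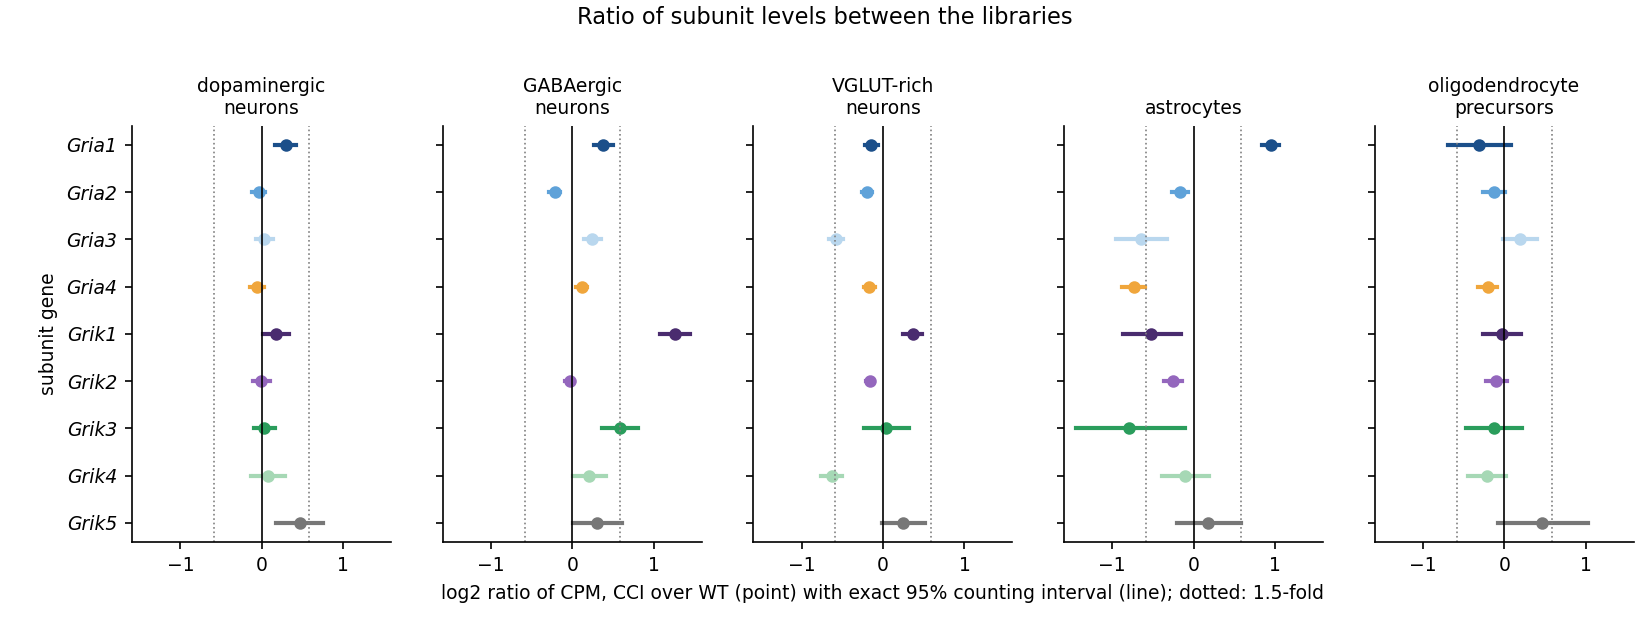
Log2 ratio of CPM, CCI over WT, for each subunit gene in 5 cell groups, with its exact 95% counting interval; dotted lines mark 1.5-fold in either direction. Gria1 in astrocytes at 0.95 and Grik1 in GABAergic neurons at 1.25 lie furthest to the right.

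Between the libraries the summed AMPA and kainate levels were close in all 5 groups. The widest gaps were those of the kainate sum in astrocytes, 1021 CPM in CCI and 1205 CPM in WT (log2 -0.24, -0.33 to -0.14), and of the AMPA sum in VGLUT-rich neurons, 3199 CPM in CCI and 3766 CPM in WT (log2 -0.24, -0.27 to -0.20). The astrocytic kainate sum stood no higher than the microglial one, 1022 CPM in CCI and 1540 CPM in WT. Its ratio was -0.054 without doublet removal. Astrocytes had 3030 CPM of AMPA UMIs in CCI and 2625 CPM in WT, a log2 ratio of 0.21 (0.15 to 0.27). Single subunits moved further than the sums.

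In astrocytes Gria1 was 1.93-fold higher in CCI, a log2 ratio of 0.95 (0.84 to 1.05), while the 3 members past 1.5-fold in the other direction were Gria4 with 356 CPM in CCI and 594 CPM in WT (-0.74, -0.88 to -0.60), Gria3 (-0.65, -0.96 to -0.33) and Grik3 (-0.79, -1.45 to -0.10), which rested on 62 UMIs in CCI and 29 in WT. Across all 9257 genes measured in astrocytes, 11% were past 1.5-fold higher and 6.13% past 1.5-fold lower in CCI. The Gria1 ratio stayed between 0.84 and 0.97 in the 7 alternative settings that gave one. Without doublet removal Gria4, Gria3 and Grik3 were no longer past 1.5-fold, at -0.39, -0.22 and -0.079. WT astrocytes held more RNA of some other types: the myelinating oligodendrocyte markers summed to 817 CPM in CCI and 2671 CPM in WT, with all 9 markers present in both. Dopaminergic markers summed to 799 CPM in CCI and 1757 CPM in WT. GABAergic markers were near level, with 584 CPM in CCI and 596 CPM in WT. Glutamatergic, endothelial, mural, fibroblast and ependymal markers were lower in WT. Mitochondrially encoded UMIs stood at 1541 CPM in CCI and 2048 CPM in WT. The part of any of these in the subunit ratios was not tested. Gria3, Gria4 and Grik3, the members past 1.5-fold lower, were all among those below the microglial levels, which were themselves lower in CCI for each of them.

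Mature oligodendrocytes were filled unequally by the libraries, with a cluster of 803 CCI and 2767 WT nuclei and another of 1864 CCI and 99 WT nuclei. Their own markers summed to 12838 CPM in CCI and 19750 CPM in WT. The part of either in the ratios was not tested. In this group 3 of the 9 members were past 1.5-fold higher and 0 past 1.5-fold lower, beside 9.66% and 4.35% of all genes. They were Grik5 (log2 0.81, 0.29 to 1.36), Gria1 (0.73, 0.49 to 0.98) and Grik4 (0.71, 0.44 to 1.00). Gria1 was low there, with 142 CPM in CCI and 85.2 CPM in WT, below its microglial level in both libraries. In microglia 0 of the 7 members with at least 50 UMIs were higher and 4 were lower, against 21.8% and 13.6% of all genes, and the neuron marker sum there was lower in CCI as well.

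In GABAergic neurons Grik1 was the only member past 1.5-fold, with 410 CPM in CCI and 172 CPM in WT, a 2.39-fold higher level in CCI (log2 1.25, 1.07 to 1.44). Of all genes measured in these neurons, 12% were past 1.5-fold higher and 5.51% past 1.5-fold lower. Mitochondrially encoded UMIs stood at 2200 CPM in CCI and 6519 CPM in WT, and the 9 mature oligodendrocyte markers summed to 311 CPM in CCI and 1026 CPM in WT. Their part in the ratios was not tested. This ratio was smaller where other nuclei were counted as GABAergic. It was 0.40 without doublet removal, 0.50 with a stricter nucleus filter, 0.51 at a finer clustering, 0.54 with receptor genes kept in the clustering and 0.47 with a gate on marker transcripts, all under 1.5-fold. Grik3, with 190.0 CPM in CCI and 127 CPM in WT, lay just inside the limit at 0.58 (0.37 to 0.81).

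The GABAergic group held 5 subclusters, of which 3 had at least 20 nuclei in each library, and 349 of its CCI nuclei lay in the other two, against 5 in WT. Within the 3 shared subclusters Grik1 was higher in CCI each time, with log2 ratios of 0.38 (0.09 to 0.69), 0.66 (0.30 to 1.04) and 1.40 (1.04 to 1.77). The largest was in the subcluster led by Ttn and Gata3, with 431 CPM in CCI and 164 CPM in WT. Gria1 was higher in CCI in the same 3 subclusters, at 0.88, 0.12 and 0.80, the middle value with an interval that spanned 0.

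In VGLUT-rich neurons Grik4 was the only member past 1.5-fold, with 189 CPM in CCI and 292 CPM in WT, 1.55-fold lower in CCI (log2 -0.63, -0.76 to -0.50). Of all genes, 12.3% were past 1.5-fold higher and 8.54% past 1.5-fold lower. Mitochondrially encoded UMIs stood at 1874 CPM in CCI and 5011 CPM in WT, and mature oligodendrocyte markers summed to 313 CPM in CCI and 1019 CPM in WT. Their part in the ratios was likewise not tested. Within the 9 shared subclusters of this group Grik4 was higher in CCI in 5 and lower in 4, with a median of 0.12, and giving each subcluster equal weight turned the ratio to 0.053. Grik4 was unevenly spread among those subclusters, and the libraries filled them unequally. It gave 21.7% of kainate UMIs in CCI and 17.1% in WT in the subcluster led by Glis3 and Slit3, which held 92 CCI and 224 WT nuclei. It gave 5.21% in CCI and 4.14% in WT in the one led by Cdh23 and Ntng2, which held 398 CCI and 143 WT nuclei. Gria3, with 439 CPM in CCI and 654 CPM in WT, lay just inside 1.5-fold at -0.58. Over the 8 other settings that gave this ratio it ran from -0.61 to -0.024.

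Over all neurons together 0 of the 9 members were past 1.5-fold, beside 8.21% of genes higher and 6.66% lower, and none was in dopaminergic neurons or in oligodendrocyte precursors. The background was 7.22% of genes higher and 3.9% lower in dopaminergic neurons, and 8.32% higher and 5.62% lower in the precursors. The member median was 0.033 in dopaminergic neurons, beside 0.035 for all genes. Grik5 had the widest gap there, with 101 CPM in CCI and 72.9 CPM in WT, a log2 ratio of 0.46 (0.18 to 0.76).

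That likeness of the dopaminergic totals hid a split within CCI. One dopaminergic subcluster held 161 CCI and all 828 WT nuclei, and the second held 228 CCI and 0 WT nuclei. In the shared one Grik2 gave 53.9% of kainate UMIs in CCI and 40.8% in WT, Grik3 gave 18.9% in CCI and 26.6% in WT, and Grik1 gave 8.97% in CCI and 16.7% in WT. In the subcluster found in CCI alone Grik2 gave 29.5%, Grik3 30.1% and Grik1 23.3%. The WT share of each of Grik2, Grik3 and Grik1 lay between those of the CCI parts. A ratio within the shared subcluster sets 161 CCI nuclei, a part of that group, against all 828 WT nuclei. Whether the WT nuclei mix the kinds that were split in CCI was not tested. On that footing 3 of the 9 members were past 1.5-fold higher in CCI and 0 lower, beside 11.9% of its genes higher and 8.14% lower. They were Gria1 at 0.68 (0.52 to 0.84), Grik2 at 0.74 (0.62 to 0.86) and Grik5 at 0.69 (0.33 to 1.04). Over the whole dopaminergic group mitochondrially encoded UMIs stood at 2606 CPM in CCI and 5110 CPM in WT, and mature oligodendrocyte markers at 251 CPM in CCI and 961 CPM in WT, whose part was not tested. The nuclei of the subcluster present in CCI alone were deeper, with a median of 10408 UMIs, against 6099 for CCI and 2117 for WT in the shared one. The share of depth in this split was not tested.

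**Figure D4:**
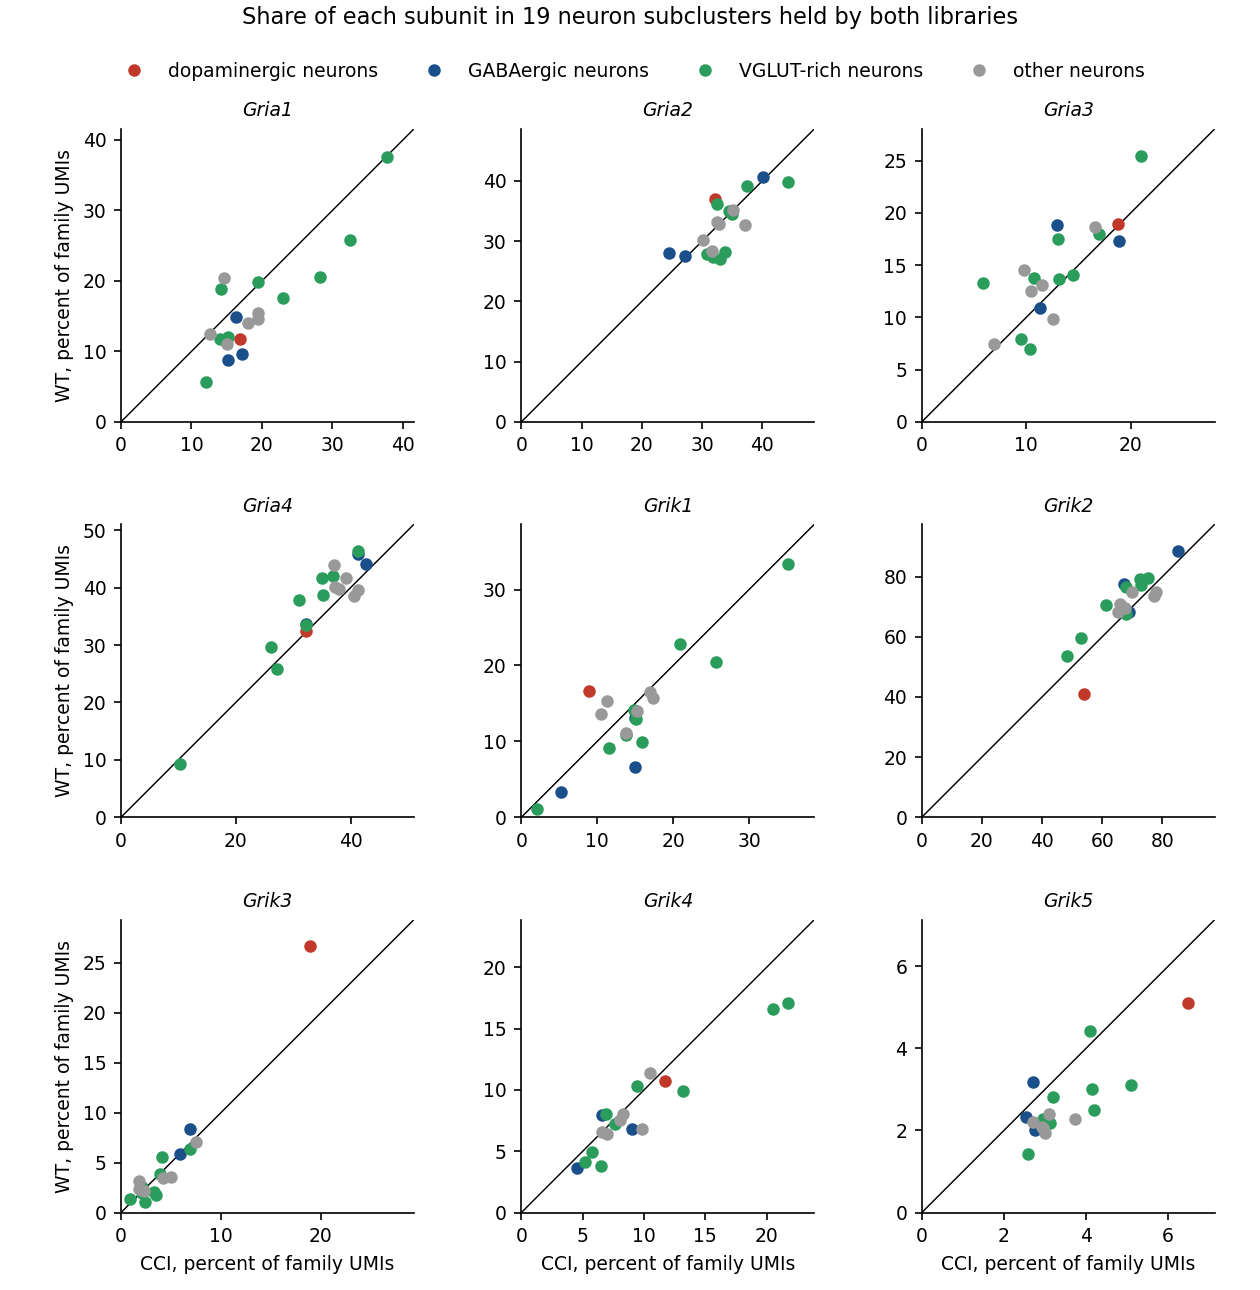
Percentage of AMPA or kainate UMIs taken by each subunit in the 19 neuron subclusters with at least 20 nuclei in each library, CCI on the x axis and WT on the y axis, coloured by neuron group; the line marks equal values. Grik3 has 1 point far from the rest, the dopaminergic subcluster with 18.9% in CCI and 26.6% in WT.

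Subunit make-up varied more between neuron subclusters than between the libraries. Over the 19 shared subclusters Pearson's r of a subunit's percentage in CCI with that in WT was between 0.743 (Gria2) and 0.971 (Grik3), as a description of points that share a library and its depth. Gria1 ranged from 12.1% to 37.8% in CCI and from 5.62% to 37.5% in WT, with a median gap of 4.64 percentage points between the libraries. Gria4 ranged from 10.3% to 42.7% in CCI and from 9.23% to 46.4% in WT. The subcluster led by Glis3 and Slit3 was at 1 end of 4 of these ranges in both libraries: the highest for Gria1 and Grik4, and the lowest for Gria4 and Grik1.

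That subcluster, of the VGLUT-rich group, had Gria1 at 37.8% in CCI and 37.5% in WT and Gria4 at 10.3% in CCI and 9.23% in WT. Its Grik1 share was 2.05% in CCI and 1.03% in WT. At the other end for Grik1 was the subcluster led by Gulp1 and C1ql1, also VGLUT-rich, with 35.1% in CCI and 33.4% in WT. Gria3 was highest in the subcluster led by D130079A08Rik and Spp1, with 21.0% in CCI and 25.5% in WT.

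Over the 19 shared subclusters the levels of 4 members were higher in CCI in more than 9. Gria1 was higher in CCI in 14, with an interval above 0 in 9 and below 0 in 3, and a median log2 ratio of 0.33. Grik5 was higher in CCI in 16, with an interval above 0 in 7 and below 0 in none, and a median of 0.47. Grik1 and Grik4 were each higher in CCI in 12, Grik1 with an interval above 0 in 5 and below 0 in 3, and Grik4 above 0 in 4 and below 0 in none. Gria4 was higher in CCI in 4 of 19, with an interval above 0 in 1 and below 0 in 5 and a median of -0.087. Gria3 was higher in CCI in 5, with a median of -0.19, Gria2 in 6, Grik2 in 7 and Grik3 in 8. The summed levels were balanced, with medians of -0.025 for AMPA and 0.016 for kainate.

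AMPA receptors are assembled and held at synapses by auxiliary proteins, and 24 such genes were listed. In GABAergic neurons 6 of the 21 measured were past 1.5-fold higher in CCI and 0 lower, with a list median of 0.32, beside 12% of all genes higher, 5.51% lower and a median of 0.048. They were the TARP genes Cacng4 (49.6 CPM in CCI and 27.1 CPM in WT) and Cacng5 (219 UMIs in CCI and 5 in WT), Shisa6 and Shisa9 of the CKAMP family (193 and 389 CPM in CCI, 126 and 248 CPM in WT), Porcn and Olfm1. Of the GABAergic nuclei, 349 in CCI and 5 in WT lay in subclusters not shared by the libraries. List genes are given for whole groups only, and the part of unequal filling in them was not tested. In VGLUT-rich neurons 4 of 23 were higher and 2 lower, with a median of 0.036, beside 12.3% of all genes higher, 8.54% lower and a median of 0.031. Cacng4 was again higher there, 61.3 CPM in CCI and 27.9 CPM in WT (log2 1.13, 0.75 to 1.55), while the secreted pentraxin gene Nptx1, whose protein clusters AMPA receptors, was lower with 14.4 CPM in CCI and 31.8 CPM in WT. In dopaminergic neurons 3 of 19 were higher (Cacng4, Abhd6 and Olfm1) and 1 lower, with a median of 0.059, beside 7.22% of all genes higher and 3.9% lower. Cacng4 was thus past 1.5-fold higher in all 3 neuron groups, and in astrocytes it stood at 57.2 CPM in CCI and 55.9 CPM in WT. In astrocytes 1 of 15 was higher (Cpt1c) and 0 lower, beside 11% and 6.13% of all genes, and in the precursors 2 of 15 were higher and 0 lower, beside 8.32% and 5.62%.

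Of the 4 kainate receptor partner genes, 3 were past 1.5-fold lower in CCI in VGLUT-rich neurons, beside 8.54% of all genes. Neto1, a kainate receptor auxiliary subunit, stood at 96.1 CPM in CCI and 154 CPM in WT (log2 -0.68, -0.86 to -0.50), and C1ql3, a secreted synaptic protein gene, at 27.6 CPM in CCI and 54.4 CPM in WT. C1ql2, outside the rule for named genes and named after its values were seen, had 31 UMIs in CCI and 39 in WT. Neto2 had 97.1 CPM in CCI and 133 CPM in WT, within 1.5-fold. In dopaminergic neurons, GABAergic neurons and astrocytes 2 of the 4 genes were measured and 0 were past 1.5-fold. Of all genes there, 7.22%, 12% and 11% were higher and 3.9%, 5.51% and 6.13% lower. In the precursors 1 of 3 was higher, beside 8.32% of all genes. C1ql3 was among the leading genes of a neuron cluster of 68 CCI and 175 WT nuclei, the libraries again filling it unequally. The partner gene ratios are given for whole groups only, and the part of unequal filling in them was not tested.

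Adarb1, the enzyme for the pore codon printed above, was past 1.5-fold higher in CCI in VGLUT-rich neurons, with 269 CPM in CCI and 169 CPM in WT (log2 0.67, 0.51 to 0.83). Adarb2, a related protein without known editing activity, was higher there too, with 1383 CPM in CCI and 746 CPM in WT. Thus 2 of the 3 editing genes were higher in VGLUT-rich neurons, beside 12.3% of all genes. Their ratios are given for the whole group only, whose subclusters the libraries filled unequally, and the part of this was not tested. In the other 4 groups 0 of the 3 editing genes was past 1.5-fold, beside 7.22% to 12% of all genes higher and 3.9% to 6.13% lower. Dopaminergic neurons held 75.1 CPM of Adarb1 in CCI and 75.0 CPM in WT.

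The 15 anchoring and trafficking genes were mostly level. Pick1, a scaffold for GluA2, was higher in dopaminergic neurons (35.5 CPM in CCI and 21.9 CPM in WT), and Camk2a, the kinase that phosphorylates GluA1, in GABAergic neurons (163 CPM in CCI and 82.0 CPM in WT), 1 of 13 and 1 of 14 measured. Of all genes, 7.22% were past 1.5-fold higher in dopaminergic neurons and 12% in GABAergic neurons. In VGLUT-rich neurons 1 of 14 was higher (Akap5) and 0 lower, beside 12.3% and 8.54% of all genes. In astrocytes 2 of 13 were lower, Dlg4 (73.7 CPM in CCI and 114 CPM in WT) and Epb41l1 (29.9 CPM in CCI and 52.9 CPM in WT), beside 6.13% of all genes. In the precursors 1 of 10 was lower, beside 5.62% of all genes.

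Genes most like each member in pattern were sought by Pearson's r of log2(CPM + 10) over clusters and neuron subclusters with at least 50 nuclei, 32 in CCI and 22 in WT, among 8170 genes. Gria2 and Grik5 were like each other, with r = 0.874 in CCI and 0.894 in WT, and both were like Astn1 (for Gria2, 0.903 in CCI and 0.912 in WT). Gria1 was most like Ccdc57 (0.833 in CCI and 0.866 in WT), Ripor2 and Gabbr2. Gria3 was most like Ptprs, Srrm3 and Bmerb1, and Gria4 most like Scg5, Dner and Sgcz. Grik3 was most like Zdhhc2 (0.795 in CCI and 0.757 in WT), Slc35f1 and Sgcd. Grik1, Grik2 and Grik4 had looser matches: Lrrtm3 for Grik1 (0.695 in CCI and 0.655 in WT), Chsy3 for Grik2 (0.729 in CCI and 0.832 in WT) and Lrrtm4 for Grik4 (0.701 in CCI and 0.712 in WT). Gria1 and Gria4 followed each other little, with r = 0.240 in CCI and 0.363 in WT. These values describe clusters that share a library, its depth and its free RNA, and carry no test.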

How the data were processed

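UMI counts per gene and barcode were deposited by the authors as 1 matrix for each library. Per the file headers they were made with Cell Ranger 7.1.0, and the submitters' processing notes name build mm10 and Seurat. Which annotation release and strand setting were used, and whether intronic reads were counted, is not given in the sources used here. Of the 32285 gene identifiers, 32158 (99.6%) were in GENCODE vM21, which gave coordinates, gene spans and transcripts. The members overlap other annotated genes at 6 of 9 loci, and of those only Gm26543 and Gm47018, within Grik2 on its strand, were in the deposited counts, so their reads and those of Grik2 may not be separable.

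Barcodes were kept with at least 200 genes, 500 UMIs and at most 20% mitochondrially encoded UMIs, which removed 0 CCI and 690 WT barcodes. Scrublet in Scanpy 1.11.5 then removed 934 CCI (6.80%) and 1296 WT (9.65%) barcodes as doublets. Genes were scaled within each library, ionotropic glutamate receptor and mitochondrial genes were left out, and nuclei were clustered by the Leiden method (leidenalg 0.10.2, resolution 1) on 30 principal components of 2000 variable genes, with 20 neighbours from scikit-learn 1.9.0. Neurons were clustered again. A non-neuronal class name needed 3 or more markers in 5% of nuclei and a relative marker level of 0.25 or more that exceeded the next class 1.5 times. Neuron clusters needed a relative neuron marker level of 0.25 or more, at least equal to that of every non-neuronal class. Dopaminergic subclusters needed a relative dopaminergic marker level of 0.25 or more and 3 or more markers in 5% of nuclei. GABAergic and VGLUT-rich subclusters had 3 times more UMIs of one transmitter list than of the other. These naming rules were set after the cluster tables had been seen.

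UMIs were summed per group and library. Ratios (log2, CCI over WT) have exact conditional intervals, shares have Clopper-Pearson intervals and levels have Poisson intervals, all at 95% (SciPy 1.17.1, NumPy 2.4.6). All intervals cover counting error only. Genes with at least 50 UMIs in a group over both libraries were measured, and a change of 1.5-fold was counted. The calculations were tested on simulated data with known answers. Named genes were all 9 members, list genes past 1.5-fold with at least 100 UMIs, and the 3 genes most like each member in both libraries among named genes with at least 200 UMIs per library. The members and lists were chosen with earlier results of these data known. Other settings tried were no doublet removal, at least 500 genes with at most 10% mitochondrial UMIs, resolution 2, receptor genes kept, thinning to 1000 UMIs, a gate on marker transcripts, TMM scaling between libraries (a trimmed mean of gene ratios), equal weight for shared subclusters, division by gene span and no minimum of UMIs. Some list genes and leading genes are not reported here.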

Additional observations from a re-analysis of the deposited data

Results flagged for a closer look

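Several subunits stood on opposite sides of 0 in different cell groups of the same 2 libraries, with counting intervals that excluded 0 on both sides. With 1 library per group these differences between cell groups were not tested. The log2 ratio of CCI over WT was 0.95 for Gria1 in astrocytes and -0.14 in VGLUT-rich neurons. For Gria3 it was 0.25 in GABAergic neurons and -0.65 in astrocytes, and for Gria4 it was 0.11 in GABAergic neurons and -0.74 in astrocytes. For Grik1 it was 1.25 in GABAergic neurons and -0.52 in astrocytes, and for Grik3 it was 0.58 in GABAergic neurons and -0.79 in astrocytes. For Grik4 it was 0.20 in GABAergic neurons and -0.63 in VGLUT-rich neurons. The astrocytic Gria3, Gria4, Grik1 and Grik3 levels were below the microglial ones in both libraries, so these 4 contrasts set neuronal levels against values from which no expression is read. Of the ratios above, the Gria1 ratio in VGLUT-rich neurons, the Gria3, Gria4, Grik3 and Grik4 ratios in GABAergic neurons, the Grik4 ratio in VGLUT-rich neurons and the Grik1 ratio in astrocytes changed sign under at least 1 other setting.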

How the results depend on the processing

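No paired analysis was possible because each group was 1 library and the labels carry no replicate numbers. For the same reason no library could be left out. All values are log2 of CCI over WT, and the cause of a move was not tested. The Gria1 ratio in astrocytes kept its direction and stayed past 1.5-fold in all 7 alternatives that gave a value. Equal weight gave none for astrocytes and oligodendrocyte precursors, each a single cluster. Division by gene span moved 84 of 90 make-up percentages, and no minimum of UMIs left the counts of members past 1.5-fold as they were in all 5 groups. The GABAergic and VGLUT-rich groups grew to 2199 and 2774 CCI nuclei and to 1473 and 1597 WT nuclei under the stricter filter, against 1219 and 1913 CCI nuclei and 759 and 943 WT nuclei as reported.

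Summed AMPA and kainate ratios in VGLUT-rich neurons, -0.24 and -0.11 as reported, were -0.19 and -0.17 without doublet removal, -0.11 and -0.046 with the stricter filter, -0.0684 and -0.029 at resolution 2, -0.12 and -0.15 with receptor genes kept, -0.0962 and -0.010 with the gate, and -0.083 and -0.17 with equal weight. Their AMPA ratio was -0.29 after thinning and -0.19 with TMM scaling. The summed kainate ratio in GABAergic neurons, 0.13 as reported, was 0.0252 without doublet removal, 0.0090 with the stricter filter, 0.0239 at resolution 2, 0.030 with receptor genes kept, 0.011 with the gate and 0.19 after thinning. Their summed AMPA ratio, 0.066 as reported, was 0.0098 with receptor genes kept, 0.014 with the gate and 0.0076 with equal weight. In dopaminergic neurons equal weight leaves the 1 shared subcluster, which sets part of the CCI nuclei against all WT ones. It gave 0.16 for AMPA and 0.34 for kainate, and the gate gave 0.27 for kainate. The kainate ratio was -0.054 in astrocytes without doublet removal and -0.23 in oligodendrocyte precursors after thinning.

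Members past 1.5-fold in VGLUT-rich neurons, 1 as reported, were 0 without doublet removal, with the stricter filter, at resolution 2, with receptor genes kept, with the gate and with equal weight. In GABAergic neurons, 1 as reported, they were 0 without doublet removal and with the gate, and 2 after thinning and with TMM scaling. The 1 member was Grik1 as reported, but Grik3 with the stricter filter, at resolution 2 and with receptor genes kept (0.59, 0.62 and 0.60), where Grik1 was under 1.5-fold. In astrocytes, 4 as reported, they were 1 without doublet removal and 2 after thinning. In dopaminergic neurons, 0 as reported, they were 3 with equal weight, and in the precursors, 0 as reported, 2 after thinning and 1 with the gate.

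These ratios changed sign. Gria4 in GABAergic neurons was -0.0257 without doublet removal, -0.042 with the stricter filter, -0.029 at resolution 2, -0.035 with the gate and -0.080 with equal weight. In the same neurons equal weight gave -0.11 for Gria3 and -0.0037 for Grik3, and receptor genes kept gave -0.034 for Grik4. Gria1 in VGLUT-rich neurons was 0.40 with the stricter filter, 0.28 at resolution 2, 0.12 with receptor genes kept, 0.25 with the gate and 0.0969 with equal weight. Grik1 there was -0.042 without doublet removal, -0.025 at resolution 2 and -0.26 with receptor genes kept, and Grik4 was 0.053 with equal weight. Grik1 was -0.024 after thinning and -0.55 with equal weight in dopaminergic neurons, and 0.12 in astrocytes without doublet removal.

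Depth limits the WT glia most: of 1267 WT astrocytes, 202 reached 1000 UMIs, and Grik3 there rested on 29 UMIs.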
